A study of Homo sapiens with 22 samples.

Results

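The genes described here are the enzymes, regulators and transporters of cholesterol and fatty acid synthesis, taken as a named list of 37 symbols and matched by symbol to a table of 34679 human genes. The table held 35 of the 37 (PMVK and SCD are not analysed here), and all 35 passed the filter on low counts, as did 16601 genes in all. Expression was measured by RNA sequencing of differentiated LUHMES cells, an established human mesencephalic line that matures into neurons with dopaminergic features. The study built cell models of Parkinson's disease in this line and then gave a pair of plant flavonols to the combined model. The groups used here were alpha-synuclein-overexpressing cells given 6-OHDA and quercetin (3 libraries), alpha-synuclein-overexpressing cells given 6-OHDA and rutin (3 libraries), alpha-synuclein-overexpressing cells given 6-OHDA alone (4 libraries), untreated alpha-synuclein-overexpressing cells (4 libraries), wild-type cells given 6-OHDA (4 libraries) and untreated wild-type cells (4 libraries). 6-OHDA (6-hydroxydopamine) is a dopamine analogue that harms dopaminergic neurons through oxidation, and alpha-synuclein is the main protein of Lewy bodies. Doses, exposure times and the promoter that drives alpha-synuclein were not given in the sources used here, and no label states how many clones or cultures the libraries came from.

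Cholesterol is built from acetyl-CoA through mevalonate and isoprenoid intermediates to squalene, which is closed into lanosterol and then trimmed and reduced to cholesterol. Neurons depend on this pathway for membranes and synapses, and they also draw on acetyl-CoA for fatty acid synthesis, desaturation and elongation. Both branches are switched on by SREBP transcription factors, which SCAP carries from the endoplasmic reticulum for activation when sterols are scarce, and which INSIG proteins hold back when sterols are plentiful.

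Totals ran from 1866396 to 20667106 estimated counts a library, and levels are given in CPM, counts of a gene scaled to a common library size after TMM normalisation, which are not corrected for gene length. The summed level of the 7 neuronal markers was 2097 to 3138 CPM in alpha-synuclein cells given 6-OHDA, against 4179 to 5156 CPM in untreated alpha-synuclein cells. In wild-type cells the same sum was 1746 to 1933 CPM with 6-OHDA, against 4664 to 5191 CPM without it, and its part in the results below was not tested. The neuronal markers did not all run with their sum: TUBB3 stood at 154 to 174 CPM with 6-OHDA against 120.3 to 139 CPM untreated in alpha-synuclein cells, and at 147 to 192 CPM against 94.5 to 127 CPM in wild-type cells, and SNAP25 averaged 90.4 CPM with 6-OHDA and 92.7 CPM untreated in alpha-synuclein cells. The 5 dopaminergic markers, mostly TH, summed to 75.9 to 105 CPM in alpha-synuclein cells given 6-OHDA and 341 to 443 CPM in untreated ones, and to 149.7 to 167 CPM in wild-type cells given 6-OHDA and 376 to 420.1 CPM in untreated ones. By this sum both 6-OHDA groups lay below their untreated groups, and alpha-synuclein cells lay below wild-type cells with 6-OHDA. The means of TH, DDC and SLC6A3 fell in both genotypes, and DDC was at 0 CPM in 1 library of each genotype given 6-OHDA alone. NR4A2 rose, to 12.6 to 21.5 CPM from 7.37 to 10.3 CPM in alpha-synuclein cells and to 23.3 to 26.5 CPM from 6.59 to 10.5 CPM in wild-type cells. With 6-OHDA, SLC18A2 averaged 1.66 CPM in alpha-synuclein cells and 0.72 CPM in wild-type cells. Summed markers of astrocytes (4 of 5 in the table), oligodendrocytes (5 of 5), fibroblasts (5 of 5) and progenitor or cycling cells (4 of 6) each stayed at or below 106 CPM in every library, with AQP4 at 0 CPM in some libraries of 4 groups and MOG in some of 5 groups. Astrocyte markers summed to 11.5 to 22.6 CPM in alpha-synuclein cells given 6-OHDA and 10.4 to 14.9 CPM in untreated ones, and to 15.9 to 24.2 CPM in wild-type cells given 6-OHDA and 10.2 to 13.8 CPM in untreated ones. Progenitor and cycling markers summed to 26.9 to 48.2 CPM in alpha-synuclein cells given 6-OHDA and 57.8 to 106 CPM in untreated ones, and to 37.7 to 47.2 CPM in wild-type cells given 6-OHDA and 54.4 to 75.0 CPM in untreated ones. Of these, the means of MKI67 and CCNB1 fell in both genotypes. PAX6 averaged 17.2 CPM with 6-OHDA and 15.4 CPM untreated in alpha-synuclein cells, and 20.7 and 16.4 CPM in wild-type cells. TOP2A averaged 0.23 and 0.70 CPM in alpha-synuclein cells and 1.27 and 0.69 CPM in wild-type cells. Oligodendrocyte markers summed to 16.3 to 20.0 CPM in alpha-synuclein cells given 6-OHDA and 23.9 to 35.3 CPM in untreated ones, and to 14.4 to 20.0 CPM in wild-type cells given 6-OHDA and 23.9 to 28.3 CPM in untreated ones. That sum was mostly MBP. MOBP ran against it, averaging 3.83 CPM with 6-OHDA and 1.95 CPM untreated in alpha-synuclein cells, and 2.65 and 1.81 CPM in wild-type cells. Fibroblast markers summed to 16.2 to 25.1 CPM in alpha-synuclein cells given 6-OHDA and 21.1 to 23.7 CPM in untreated ones, and to 22.1 to 24.6 CPM in wild-type cells given 6-OHDA and 14.9 to 19.3 CPM in untreated ones. COL1A1, the largest part of that sum, averaged 11.6 CPM with 6-OHDA and 16.2 CPM untreated in alpha-synuclein cells, and 14.6 and 10.3 CPM in wild-type cells. The means of COL1A2, DCN and PDGFRA rose in both genotypes. LUM averaged 0.31 CPM with 6-OHDA and 0.17 CPM untreated in alpha-synuclein cells, and 0.02 and 0.56 CPM in wild-type cells. The part of the astrocyte, oligodendrocyte, fibroblast and progenitor or cycling markers in the results was not tested either. Replicate 4 of alpha-synuclein cells given 6-OHDA stood apart when libraries were ordered by the first principal component (40.8% of variance), at -1.47 against 35.8 to 45.3 for the other 6-OHDA libraries and -76.4 to -53.5 for untreated ones. Library names place both untreated groups and 6-OHDA-treated wild-type cells on lane 1 and the other 3 groups on lane 2. In the 6-OHDA comparison within alpha-synuclein cells, lane and treatment therefore cannot be told apart, which also bears on the difference in response between genotypes. Between the genotypes given 6-OHDA, lane and genotype cannot be told apart. In bulk RNA, fewer cells of a type and less RNA per cell cannot be told apart.

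**Figure D1:**
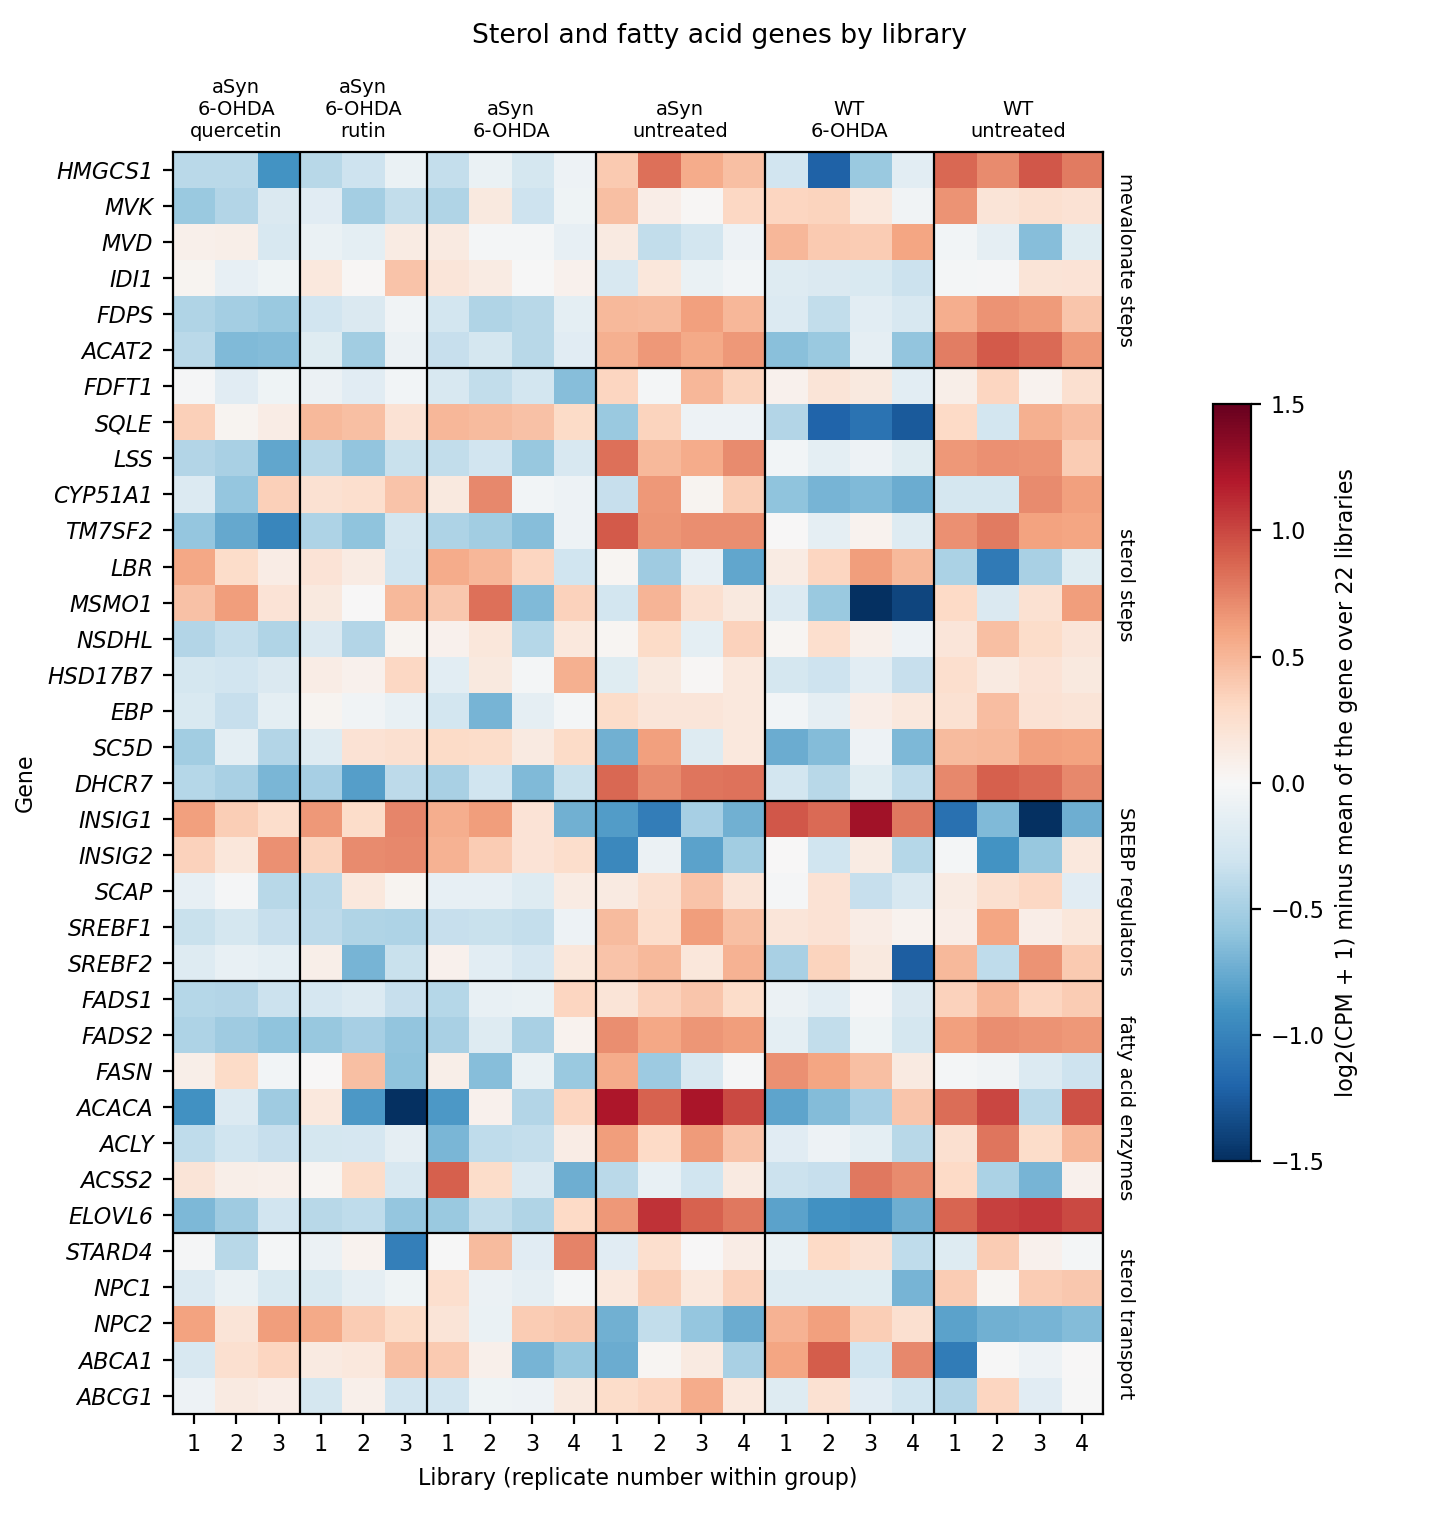
Level of each of the 35 genes (rows, grouped by role) in each of the 22 libraries (columns, by group and replicate number), as log2(CPM + 1) minus the mean of the gene over all libraries, with red above and blue below that mean. DHCR7, LSS and FADS2 were blue or pale in all 6-OHDA groups, while SQLE was blue in wild-type cells given 6-OHDA and red or pale in alpha-synuclein cells given 6-OHDA.

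The first comparison asked what 6-OHDA did to wild-type cells. More of the 35 genes, regulators and transporters included, fell than rose with the toxin. At an edgeR adjusted p under 0.05, 19 of the 35 fell and 6 rose, or 54.3% and 17.1%. Of all tested genes 52% were called, 26.2% lower and 25.8% higher. The median log2 change (6-OHDA over untreated) was -0.46 over the 35 genes and 0.07 over all tested genes. The deepest drop was in the fatty acid elongase ELOVL6, and the steepest rise in INSIG1, the protein that holds SREBPs back. In alpha-synuclein cells 17 fell and 4 rose, or 48.6% and 11.4%, where 47.1% of all tested genes were called, 24.2% lower and 22.9% higher, with a median log2 change of -0.32 over the 35 genes and 0.05 over all tested genes. These counts were also 17 and 4 without replicate 4 of alpha-synuclein cells given 6-OHDA, and they were the same genes. In that fit 51.9% of all tested genes were called.

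Of the 35 genes, 12 fell in both genotypes, 3 rose in both, and 4 were called in neither. A further 7 fell in wild-type cells and were not called in alpha-synuclein cells, 5 fell in alpha-synuclein cells and were not called in wild-type cells, and 0 were called in opposite directions. That 0 was not stable, since SQLE, which fell in wild-type cells, was called higher in alpha-synuclein cells when any of 6 libraries was left out, and SC5D when 1 was. The wild-type and alpha-synuclein comparisons share no library. Joint calls were not counted over all tested genes, of which 52% were called in wild-type and 47.1% in alpha-synuclein cells. The joint counts of the 35 genes therefore cannot be set against a share of all genes.

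**Figure D2:**
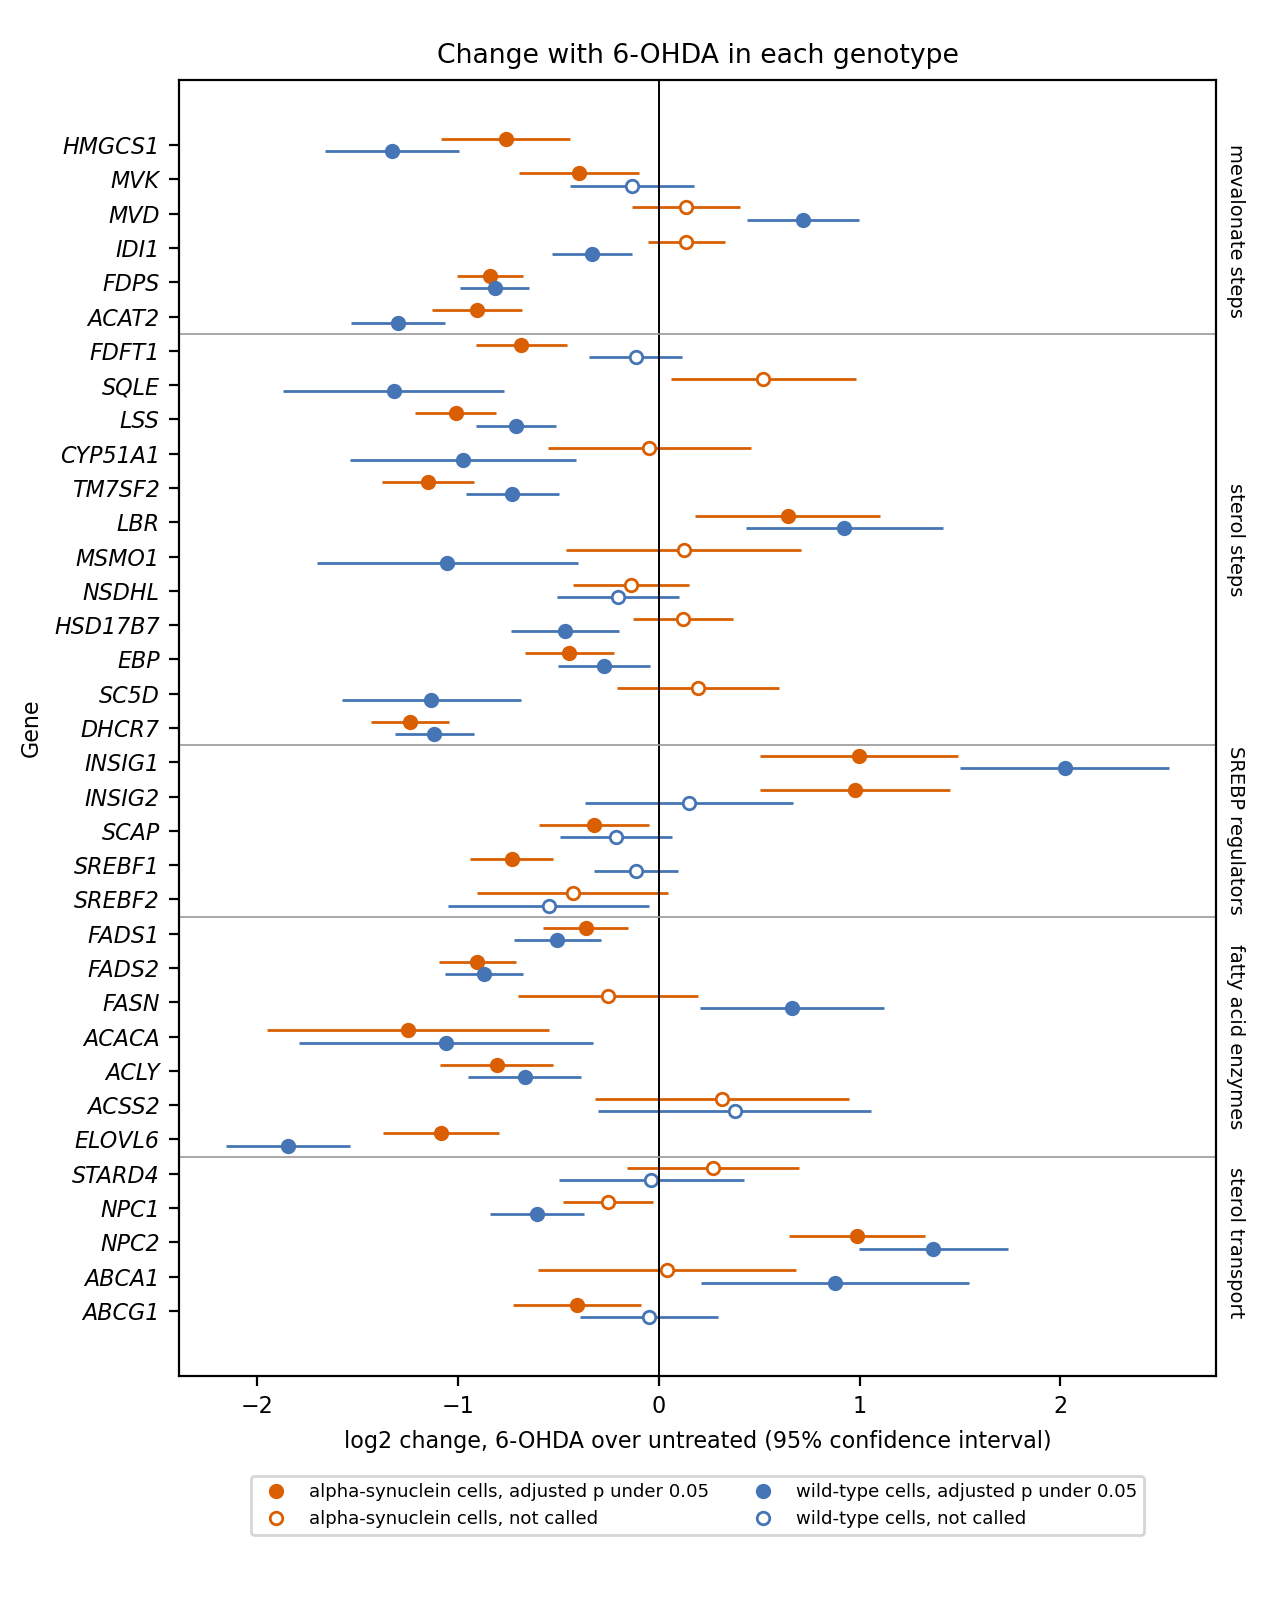
log2 change with 6-OHDA over untreated cells (x axis) for each of the 35 genes (y axis) in alpha-synuclein and wild-type cells, with 95% confidence intervals, where filled points passed an adjusted p of 0.05. The points lie mostly left of 0, with INSIG1, NPC2 and LBR to the right of 0 and filled in both genotypes. MVD, INSIG2, ACSS2 and ABCA1 also lie to the right of 0 in both, but are not filled in both.

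The mevalonate steps, which turn acetyl-CoA into isoprenoids, fell in 4 of 6 genes and rose in 1 in wild-type cells (66.7% and 16.7%). Of all tested genes there, 26.2% fell and 25.8% rose. In alpha-synuclein cells 4 of 6 fell (66.7%) and 0 rose, where 24.2% of all tested genes fell and 22.9% rose. HMGCS1, which makes the HMG-CoA from which mevalonate is formed, stood at 171, 89.5, 141 and 187 CPM in the 4 wild-type libraries given 6-OHDA, against 379, 342, 397 and 359 CPM in the 4 untreated ones. Every treated library was below every untreated one, and the log2 change was -1.33 ± 0.16 (SE, edgeR adjusted p = 4.67e-07). In alpha-synuclein cells HMGCS1 stood at 163, 195, 174 and 197 CPM with 6-OHDA, against 273, 370.2, 306 and 285 CPM without it, again with no overlap, and the log2 change was -0.76 ± 0.16 (SE, edgeR adjusted p = 0.00038). The drop was of like direction in both genotypes, and the difference between them, 0.56 ± 0.22 (SE), did not pass the test (edgeR adjusted p = 0.0737).

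ACAT2, the cytosolic thiolase that joins acetyl-CoA units at the entry to the pathway, stood at 48.3, 50.5, 68.4 and 49.2 CPM with 6-OHDA in wild-type cells, against 129, 143, 135 and 119 CPM in untreated cells. In alpha-synuclein cells its levels were 58.7, 62.5, 55.7 and 66.5 CPM with 6-OHDA, against 108, 119, 112 and 118 CPM untreated. Neither pair of groups overlapped, and ACAT2 fell, with log2 changes of -1.30 ± 0.11 (SE, edgeR adjusted p = 4.15e-09) in wild-type cells and -0.90 ± 0.11 (SE, edgeR adjusted p = 5.4e-07) in alpha-synuclein cells. Its exons overlap TCP1 and SOD2 on the other strand, so a share of its counts is uncertain. FDPS, which makes farnesyl diphosphate for sterols and prenylated proteins, stood at 92.4, 82.0, 95.3 and 90.0 CPM with 6-OHDA, against 156, 169.8, 166 and 142 CPM untreated, in wild-type cells. In alpha-synuclein cells FDPS stood at 87.4, 77.5, 79.2 and 96.0 CPM with 6-OHDA, against 150.0, 149, 164 and 151 CPM untreated. All treated libraries were below all untreated ones in both genotypes, with log2 changes of -0.82 ± 0.08 (SE, edgeR adjusted p = 3.42e-08) in wild-type and -0.84 ± 0.08 (SE, edgeR adjusted p = 2.56e-08) in alpha-synuclein cells.

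The other 3 mevalonate genes did not move together. MVD, the decarboxylase that forms isopentenyl diphosphate, rose in wild-type cells to 48.0, 44.5, 44.2 and 51.2 CPM with 6-OHDA, against 32.7, 30.5, 21.3 and 29.5 CPM untreated, a log2 change of 0.72 ± 0.13 (SE, edgeR adjusted p = 0.000118). In alpha-synuclein cells MVD averaged 33.5 ± 2.59 CPM with 6-OHDA and 30.6 ± 5.00 CPM without it (SD, n = 4 each), and its log2 change of 0.13 was not called (edgeR adjusted p = 0.408). IDI1, which isomerises isopentenyl diphosphate, fell in wild-type cells (log2 change -0.33 ± 0.10 SE, edgeR adjusted p = 0.00648) and was not called in alpha-synuclein cells (log2 change 0.14 ± 0.09 SE, edgeR adjusted p = 0.233). MVK, mevalonate kinase, was not called in wild-type cells (log2 change -0.13 ± 0.15 SE, edgeR adjusted p = 0.47) and fell in alpha-synuclein cells (log2 change -0.40 ± 0.14 SE, edgeR adjusted p = 0.0288), a call that was lost without replicate 1 or 3 of alpha-synuclein cells given 6-OHDA or replicate 1 or 4 of untreated alpha-synuclein cells, and under 2 other settings. Its exons overlap MMAB on the other strand.

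The steps from farnesyl diphosphate to cholesterol fell in 9 of 12 genes and rose in 1 in wild-type cells (75% and 8.33%). They fell in 5 and rose in 1 in alpha-synuclein cells (41.7% and 8.33%). Shares of all tested genes were 26.2% and 25.8% in wild-type cells, and 24.2% and 22.9% in alpha-synuclein cells. LSS, which closes squalene epoxide into lanosterol, stood at 298, 276, 291 and 269.6 CPM with 6-OHDA in wild-type cells, against 479, 492, 489 and 399 CPM untreated. In alpha-synuclein cells LSS stood at 237, 250.5, 206 and 258 CPM with 6-OHDA, against 543, 427, 449.5 and 499.8 CPM untreated. The treated libraries were all below the untreated ones, with log2 changes of -0.71 ± 0.10 (SE, edgeR adjusted p = 2.41e-06) in wild-type and -1.01 ± 0.10 (SE, edgeR adjusted p = 2.56e-08) in alpha-synuclein cells.

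DHCR7, the reductase of the last step from 7-dehydrocholesterol, stood at 162, 147, 173 and 151 CPM with 6-OHDA, against 326, 366, 354 and 325 CPM untreated, in wild-type cells. In alpha-synuclein cells DHCR7 stood at 141, 159.7, 124.3 and 155 CPM with 6-OHDA, against 357, 321, 343 and 346 CPM untreated. The groups were far apart in both genotypes, with log2 changes of -1.12 ± 0.10 (SE, edgeR adjusted p = 3.02e-09) in wild-type and -1.24 ± 0.09 (SE, edgeR adjusted p = 1.06e-09) in alpha-synuclein cells, and a difference between genotypes of -0.12 with a 95% interval of -0.39 to 0.16. TM7SF2, a sterol C14-reductase, stood at 162, 147, 168 and 141 CPM with 6-OHDA, against 261, 277, 245 and 244 CPM untreated, in wild-type cells. In alpha-synuclein cells TM7SF2 stood at 116.5, 112, 104 and 153 CPM with 6-OHDA, against 306, 255, 263 and 263 CPM untreated. There was no overlap in either, and the log2 changes were -0.73 ± 0.11 (SE, edgeR adjusted p = 1.03e-05) in wild-type and -1.15 ± 0.11 (SE, edgeR adjusted p = 2.74e-08) in alpha-synuclein cells. TM7SF2 overlaps VPS51 on the same strand, so a share of its counts is uncertain. The reductase LBR, which can carry out the same step and also anchors chromatin at the nuclear envelope, went the other way. LBR stood at 19.1, 22.1, 27.4 and 24.9 CPM with 6-OHDA, against 12.2, 7.84, 12.1 and 15.4 CPM untreated, in wild-type cells, where it rose by 0.92 ± 0.24 (SE, edgeR adjusted p = 0.00241). In alpha-synuclein cells it rose by 0.64 ± 0.22 (SE, edgeR adjusted p = 0.0212), with overlapping libraries, and that call was lost when any of 4 libraries was left out (replicates 1 and 2 of alpha-synuclein cells given 6-OHDA, replicates 2 and 4 of untreated ones) or without the 2 multi-barcode libraries (untreated alpha-synuclein libraries whose names carry 4 barcode numbers).

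EBP, the sterol isomerase, fell in alpha-synuclein cells (log2 change -0.45 ± 0.11 SE, edgeR adjusted p = 0.00163) and in wild-type cells (log2 change -0.27 ± 0.11 SE, edgeR adjusted p = 0.0435), where the call was lost under 10 of 28 alternatives (22 libraries left out singly and 6 other settings). HSD17B7, the ketosterol reductase, fell in wild-type cells (log2 change -0.46 ± 0.13 SE, edgeR adjusted p = 0.0047) and was not called in alpha-synuclein cells (log2 change 0.12 ± 0.12 SE, edgeR adjusted p = 0.423). A pseudogene, HSD17B7P2, held 29.5% as many counts as HSD17B7, so how reads were divided between them is uncertain. CYP51A1, the lanosterol demethylase, stood at 20.5, 19.1, 19.5 and 18.4 CPM with 6-OHDA, against 26.1, 26.1, 52.1 and 48.8 CPM untreated, in wild-type cells. The untreated libraries fell into a low and a high pair, all above the treated ones, and the log2 change was -0.97 ± 0.27 (SE, edgeR adjusted p = 0.00459). In alpha-synuclein cells CYP51A1 averaged 37.1 ± 10.7 CPM with 6-OHDA and 37.1 ± 11.0 CPM without (SD, n = 4 each), which was not called (log2 -0.05, edgeR adjusted p = 0.896). NSDHL, a sterol C4-decarboxylase, was called in neither genotype (-0.20 in wild-type and -0.14 in alpha-synuclein cells).

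**Figure D3:**
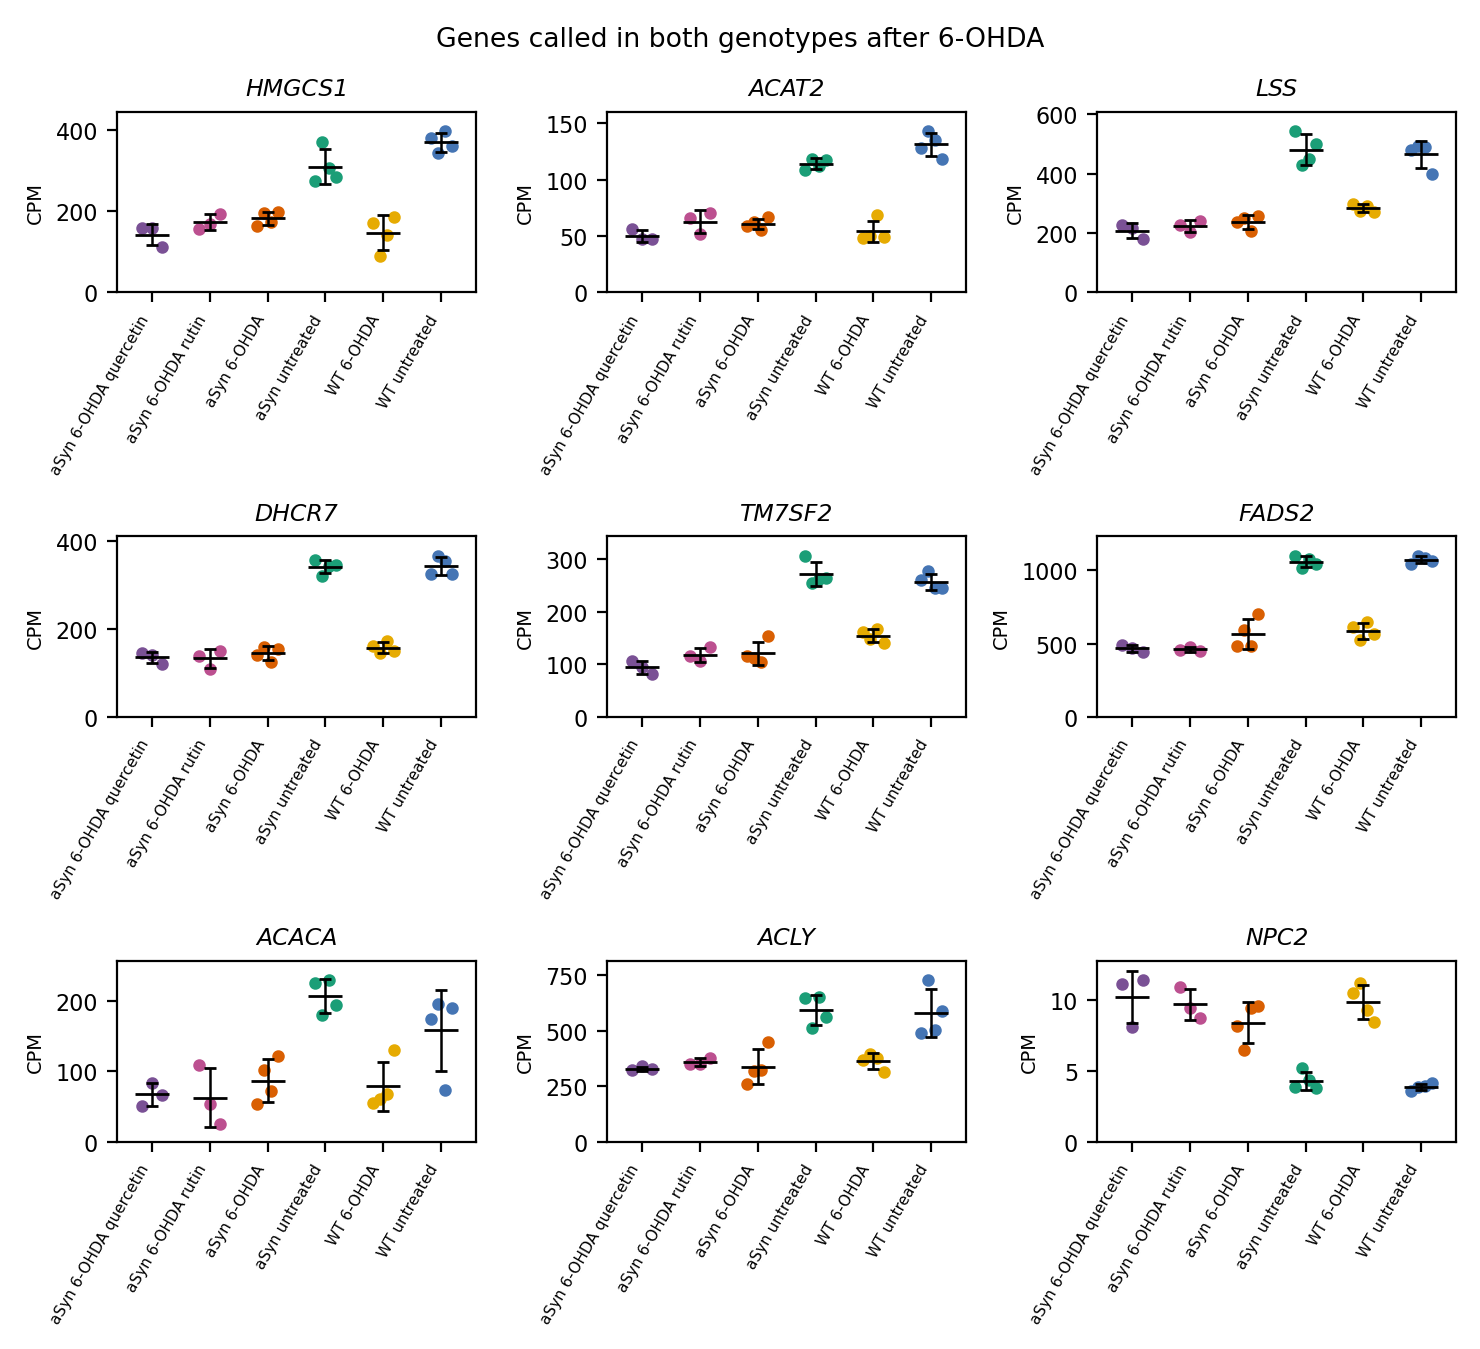
CPM of 9 genes that were called in the same direction in both genotypes, by group (x axis) and library (points), with the mean and SD as black bars. In the first 8 panels the untreated groups stand above the 6-OHDA groups in both genotypes, except that 1 untreated wild-type library of ACACA lies among the treated ones, and NPC2 runs the other way.

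Among the regulators of SREBP, 1 of 5 rose and 0 fell in wild-type cells (20% and 0%, against 25.8% and 26.2% of all tested genes). In alpha-synuclein cells 2 rose and 2 fell (40% each, against 22.9% and 24.2% of all tested genes). With 5 genes such shares show little. INSIG1, an endoplasmic reticulum protein that retains SCAP and is itself an SREBP target, stood at 74.2, 70.5, 93.9 and 67.1 CPM with 6-OHDA in wild-type cells, against 17.1, 23.9, 10.6 and 22.7 CPM untreated. Every treated library was above every untreated one, and the log2 change of 2.02 ± 0.25 (SE, edgeR adjusted p = 6.48e-07) was the largest rise among the 35 genes. In alpha-synuclein cells INSIG1 stood at 56.5, 59.9, 44.6 and 23.0 CPM with 6-OHDA, against 21.1, 18.2, 27.0 and 23.0 CPM untreated. Replicate 4 of the treated cells lay among the untreated ones, so the groups overlapped, and the log2 change was 1.00 ± 0.24 (SE, edgeR adjusted p = 0.00163). Without that library it was 1.26 ± 0.19 (SE, edgeR adjusted p = 1.59e-05).

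INSIG2, which has the same retention role, stood at 16.3, 14.7, 12.9 and 13.5 CPM with 6-OHDA, against 5.14, 10.3, 5.92 and 7.37 CPM untreated, in alpha-synuclein cells. There it rose with no overlap, by 0.98 ± 0.23 (SE, edgeR adjusted p = 0.00135). In wild-type cells INSIG2 stood at 11.1, 8.77, 12.1 and 7.96 CPM with 6-OHDA, against 10.8, 5.47, 7.10 and 12.4 CPM untreated, and its log2 change of 0.15 was not called (edgeR adjusted p = 0.636). The difference between genotypes, 0.82 ± 0.34 (SE), missed the threshold too (edgeR adjusted p = 0.0865).

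SREBF1 encodes SREBP-1, the factor that mainly drives fatty acid genes. It stood at 142, 143, 141 and 172 CPM with 6-OHDA in alpha-synuclein cells, against 250.9, 218, 281 and 248 CPM untreated, with no overlap and a log2 change of -0.73 ± 0.10 (SE, edgeR adjusted p = 3.28e-06). In wild-type cells SREBF1 stood at 205, 211, 196 and 187 CPM with 6-OHDA, against 195, 274, 195 and 204 CPM untreated, and the groups overlapped (log2 change -0.11 ± 0.10 SE, edgeR adjusted p = 0.356). SREBF2 encodes SREBP-2, the factor that mainly drives sterol genes, and varied widely between libraries. It stood at 40.0, 71.7, 62.8 and 23.4 CPM with 6-OHDA, against 79.7, 43.2, 91.0 and 74.7 CPM untreated, in wild-type cells, and its log2 change of -0.55 ± 0.24 (SE, edgeR adjusted p = 0.0619) was not called, although it was called lower under 6 of 28 alternatives (-0.80, edgeR adjusted p = 0.0102, without replicate 2 of the treated cells). In alpha-synuclein cells SREBF2 stood at 59.3, 50.6, 47.2 and 63.8 CPM with 6-OHDA, against 76.3, 79.2, 63.7 and 81.4 CPM untreated, and was not called either (log2 change -0.43 ± 0.23 SE, edgeR adjusted p = 0.128), although in the fit of those groups alone its adjusted p was 0.0168. SCAP, the SREBP escort protein, was not called in wild-type cells (-0.21) and fell in alpha-synuclein cells (log2 change -0.32 ± 0.13 SE, edgeR adjusted p = 0.0499), a call that was lost under 19 of 28 alternatives.

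The promoters of 4 of these genes are printed below as examples: INSIG1, which rose, SREBF2, the sterol regulator itself, MSMO1, whose difference in response between genotypes was close to the threshold (edgeR adjusted p = 0.0496, lost under 14 of 28 alternatives), and LSS, which fell in both. They are RefSeq sequences on GRCh38.p14, from 250 bases before to 50 bases after the annotated start, read 5′ to 3′ on the strand of the gene. The windows are chr7:155297628-155297927 (plus strand) for INSIG1, chr22:41832855-41833154 (plus) for SREBF2, chr4:165327419-165327718 (plus) for MSMO1 and chr21:46228725-46229024 (minus) for LSS. Capitals mark CCAAT or its reverse complement ATTGG (the core read by NF-Y, a factor that works beside SREBPs), the E-box CACGTG, and the SREBP element searched as TCACNCCAC.
INSIG1: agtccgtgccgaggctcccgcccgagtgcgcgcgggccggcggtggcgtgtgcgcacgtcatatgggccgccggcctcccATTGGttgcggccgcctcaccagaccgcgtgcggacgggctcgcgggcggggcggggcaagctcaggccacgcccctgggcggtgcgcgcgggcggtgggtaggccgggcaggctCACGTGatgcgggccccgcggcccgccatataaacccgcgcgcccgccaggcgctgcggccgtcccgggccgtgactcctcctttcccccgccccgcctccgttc
SREBF2: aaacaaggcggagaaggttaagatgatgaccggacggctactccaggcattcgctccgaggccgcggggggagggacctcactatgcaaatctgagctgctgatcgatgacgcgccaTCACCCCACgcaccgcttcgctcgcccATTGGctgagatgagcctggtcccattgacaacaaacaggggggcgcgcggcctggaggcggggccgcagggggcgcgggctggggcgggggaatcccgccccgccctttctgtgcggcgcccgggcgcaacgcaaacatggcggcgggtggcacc
MSMO1: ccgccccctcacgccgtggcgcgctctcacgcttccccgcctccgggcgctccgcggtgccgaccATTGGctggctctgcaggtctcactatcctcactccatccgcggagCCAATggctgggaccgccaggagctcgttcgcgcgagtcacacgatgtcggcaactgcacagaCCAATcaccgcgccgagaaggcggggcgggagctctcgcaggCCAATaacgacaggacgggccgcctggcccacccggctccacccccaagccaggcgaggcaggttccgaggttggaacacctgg
LSS: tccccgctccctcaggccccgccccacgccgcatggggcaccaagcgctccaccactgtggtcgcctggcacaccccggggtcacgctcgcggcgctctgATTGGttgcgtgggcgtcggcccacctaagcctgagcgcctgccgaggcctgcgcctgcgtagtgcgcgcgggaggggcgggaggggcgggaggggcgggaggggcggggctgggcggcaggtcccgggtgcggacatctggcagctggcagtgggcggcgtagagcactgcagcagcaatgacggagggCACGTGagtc
MSMO1 holds the CCAAT core at 185, 139, 76 and 34 bases before its start, and INSIG1 holds it at 170 bases and an E-box at 55 bases before. LSS holds the CCAAT core at 150 bases before its start and an E-box past it, at position 41 counted from the start base. SREBF2 holds the SREBP element at 133 bases and the CCAAT core at 106 bases before its start. Promoter windows were matched for 30 of the 35 genes, with 42 windows. On either strand, the CCAAT core was in 25 of the 42 windows (59.5%), where 34.6% of all 35116 promoter windows and 34.1% of those of tested genes held it. The E-box was in 6 (14.3%), where 7.26% of all windows and 8.9% of those of tested genes held it. The SREBP element was in 1 (2.38%), where 1.13% of all windows and 1.1% of those of tested genes held it. Only this form of the element was searched, so the search cannot show that the other genes lack an SREBP element. TGATGNAA, the element read by the stress factor ATF4 with its C/EBP partners, was in 0 of the 42 windows. It was in 3.62% of all windows and 2.23% of those of tested genes, shares so low that 0 of 42 shows little. Among the 24 genes that fell in either genotype, 14 of the 20 with a promoter held the CCAAT core, and among the 11 that did not fall, 7 of 10 held it. These matches describe letters and are not sites of binding.

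Enzymes of fatty acid synthesis fell in 5 of 7 genes in both genotypes (71.4%), and 1 rose in wild-type cells (14.3%). Among all tested genes 26.2% fell and 25.8% rose in wild-type cells, and 24.2% fell in alpha-synuclein cells. ELOVL6, which lengthens palmitate and lies on chromosome 4 (chr4:110045846-110199199, minus strand, GENCODE 29 on GRCh38), stood at 76.5, 71.1, 69.8 and 80.1 CPM with 6-OHDA in wild-type cells, against 246, 275, 281 and 267 CPM untreated. The groups were far apart, and the log2 change of -1.84 ± 0.15 (SE, edgeR adjusted p = 1.42e-09) was the largest drop among the 35 genes. In alpha-synuclein cells ELOVL6 stood at 90.7, 103.4, 97.5 and 165 CPM with 6-OHDA, against 211, 286, 249.0 and 232 CPM untreated. The high value among the treated was replicate 4. The log2 change was -1.08 ± 0.14 (SE, edgeR adjusted p = 1.72e-06), and -1.33 ± 0.10 (SE) without that library.

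FADS2, the desaturase at the entry to polyunsaturated fatty acid synthesis, stood at 611, 521, 648 and 564 CPM with 6-OHDA in wild-type cells, against 1039, 1098, 1082 and 1064 CPM untreated. In alpha-synuclein cells it stood at 483, 592, 484 and 700.0 CPM with 6-OHDA, against 1097, 1013, 1072 and 1044 CPM untreated. All treated libraries were lower, with log2 changes of -0.87 ± 0.09 (SE, edgeR adjusted p = 8.1e-08) in wild-type and -0.90 ± 0.09 (SE, edgeR adjusted p = 7.21e-08) in alpha-synuclein cells. FADS1, the partner desaturase, also fell in both, with log2 changes of -0.51 ± 0.10 (SE, edgeR adjusted p = 0.000338) in wild-type and -0.36 ± 0.10 (SE, edgeR adjusted p = 0.00613) in alpha-synuclein cells, where the call was lost with only the groups compared and without the 2 multi-barcode libraries. The exons of FADS1 and FADS2 overlap on opposite strands, and whether counting used strand was not given in the sources used here.

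ACACA, the acetyl-CoA carboxylase that makes malonyl-CoA, was variable. It stood at 55.7, 61.4, 68.4 and 130.3 CPM with 6-OHDA in wild-type cells, against 175, 196, 73.1 and 190.2 CPM untreated. The groups overlapped by 1 library in each, and the log2 change of -1.06 ± 0.35 (SE, edgeR adjusted p = 0.0158) was not called without replicate 1 of wild-type cells given 6-OHDA (edgeR adjusted p = 0.0606). In alpha-synuclein cells ACACA stood at 53.01, 101.6, 71.4 and 121.6 CPM with 6-OHDA, against 226, 180.4, 229 and 194 CPM untreated, with no overlap (log2 change -1.25 ± 0.34 SE, edgeR adjusted p = 0.00453). ACLY, which makes cytosolic acetyl-CoA from citrate, fell in both genotypes, with log2 changes of -0.67 ± 0.14 (SE, edgeR adjusted p = 0.000295) in wild-type and -0.81 ± 0.13 (SE, edgeR adjusted p = 4.49e-05) in alpha-synuclein cells, with no overlap in either. FASN, the fatty acid synthase, ran against the rest of the group in wild-type cells. It stood at 78.7, 73.8, 67.0 and 53.2 CPM with 6-OHDA, against 47.5, 46.9, 41.9 and 38.9 CPM untreated, a log2 change of 0.66 ± 0.22 (SE, edgeR adjusted p = 0.0157), and the call was lost without replicate 1 of the treated cells (edgeR adjusted p = 0.0724). In alpha-synuclein cells FASN averaged 40.1 ± 9.94 CPM with 6-OHDA and 48.4 ± 16.7 CPM without (SD, n = 4 each), which was not called (-0.25, edgeR adjusted p = 0.35). ACSS2, which makes acetyl-CoA from acetate, was called in neither genotype (0.38 in wild-type and 0.31 in alpha-synuclein cells).

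Of the 5 sterol transport genes, 2 rose and 1 fell in wild-type cells (40% and 20%, against 25.8% and 26.2% of all tested genes). In alpha-synuclein cells 1 rose and 1 fell (20% each, near the 22.9% and 24.2% of all tested genes). NPC2, the lysosomal cholesterol carrier, stood at 10.5, 11.2, 9.30 and 8.45 CPM with 6-OHDA in wild-type cells, against 3.59, 3.83, 3.92 and 4.11 CPM untreated. In alpha-synuclein cells NPC2 stood at 8.14, 6.46, 9.40 and 9.54 CPM with 6-OHDA, against 3.86, 5.17, 4.36 and 3.77 CPM untreated. Every treated library was higher, with log2 changes of 1.37 ± 0.18 (SE, edgeR adjusted p = 1.38e-06) in wild-type and 0.99 ± 0.16 (SE, edgeR adjusted p = 3.59e-05) in alpha-synuclein cells. NPC2 had few counts, 17 in its lowest library, and overlaps ISCA2 on the other strand, which had 3427 counts over all libraries against 1403 for NPC2. NPC1, the membrane protein that takes cholesterol from NPC2, fell in wild-type cells to 74.3, 74.1, 74.9 and 52.2 CPM with 6-OHDA, against 111, 87.0, 111 and 113 CPM untreated, with no overlap (log2 change -0.60 ± 0.11 SE, edgeR adjusted p = 0.000114). In alpha-synuclein cells NPC1 averaged 85.7 ± 10.9 CPM with 6-OHDA and 102.2 ± 8.42 CPM without (SD, n = 4 each), with an adjusted p of 0.0605 by edgeR and 0.0474 by DESeq2. NPC1 overlaps RMC1 on the other strand, which had 158185 counts against 17121 for NPC1.

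ABCA1, the exporter of cellular cholesterol to lipoproteins, stood at 11.2, 14.2, 5.58 and 12.4 CPM with 6-OHDA in wild-type cells, against 2.94, 7.11, 6.73 and 7.14 CPM untreated. The groups overlapped, and the rise, by 0.88 ± 0.32 (SE, edgeR adjusted p = 0.026), was lost without replicate 1, 2 or 4 of the treated cells or replicate 1 of the untreated ones. In alpha-synuclein cells ABCA1 was not called (0.04, edgeR adjusted p = 0.926). ABCG1, a second sterol exporter, fell in alpha-synuclein cells (log2 change -0.41 ± 0.15 SE, edgeR adjusted p = 0.0338), a call lost under 7 of 28 alternatives, and was not called in wild-type cells (-0.05). STARD4, a cytosolic sterol carrier, was called in neither (-0.04 in wild-type and 0.27 in alpha-synuclein cells).

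The next question was whether the response to 6-OHDA differed between genotypes, tested as the change in alpha-synuclein cells minus the change in wild-type cells. For 6 of the 35 genes (17.1%) this difference was positive and for 5 (14.3%) negative at an edgeR adjusted p under 0.05, where 21.6% of all tested genes were called, 11.2% positive and 10.5% negative. These shares are near those of all genes. Positive were SQLE, SC5D, MSMO1, ELOVL6, HSD17B7 and IDI1, and negative were INSIG1, FASN, SREBF1, MVD and FDFT1. Without replicate 4 of alpha-synuclein cells given 6-OHDA, 4 were positive and 3 negative, of which 4 and 2 were among those called with it. In that fit 21.5% of all tested genes were called.

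SQLE, squalene epoxidase, a rate-limiting enzyme of sterol synthesis on chromosome 8, showed the largest difference. It stood at 9.14, 8.97, 8.69 and 7.72 CPM in alpha-synuclein cells given 6-OHDA, against 3.86, 8.06, 5.81 and 5.77 CPM in untreated alpha-synuclein cells. In wild-type cells it stood at 4.29, 2.12, 2.33 and 1.99 CPM with 6-OHDA, against 7.84, 4.93, 9.34 and 8.87 CPM untreated. In wild-type cells the groups did not overlap and SQLE fell by 1.32 ± 0.27 on the log2 scale (SE, edgeR adjusted p = 0.000256), while in alpha-synuclein cells it was 0.52 ± 0.22 (SE), which was not called (edgeR adjusted p = 0.0586). The difference was 1.84 ± 0.35 (SE, edgeR adjusted p = 0.00122), and it was called under all 28 alternatives. The change in alpha-synuclein cells was called higher without replicate 2 of untreated alpha-synuclein cells (0.71, edgeR adjusted p = 0.0153), without replicate 2 of untreated wild-type cells, or without any 1 of the 4 wild-type libraries given 6-OHDA, where adjusted p-values were 0.028 to 0.0477. SQLE was scarce, with 4 counts in its lowest library, which was of wild-type cells given 6-OHDA, the group of lowest median total.

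SC5D, the sterol desaturase just before DHCR7, stood at 39.7, 39.5, 35.7 and 39.7 CPM with 6-OHDA in alpha-synuclein cells, against 19.3, 50.1, 28.3 and 36.2 CPM untreated. The treated libraries were close together and the untreated ones spread on both sides of them, and the change was not called (0.20, edgeR adjusted p = 0.424), though it was called higher without replicate 2 of the untreated cells (0.46, edgeR adjusted p = 0.0346). In wild-type cells SC5D stood at 18.9, 20.3, 30.7 and 19.9 CPM with 6-OHDA, against 45.4, 45.8, 50.3 and 49.7 CPM untreated, with no overlap (log2 change -1.13 ± 0.21 SE, edgeR adjusted p = 0.000132). The difference of 1.33 ± 0.29 (SE, edgeR adjusted p = 0.0029) was called under all 28 alternatives. MSMO1, the methylsterol oxidase, stood at 34.9, 47.4, 16.2 and 33.7 CPM with 6-OHDA in alpha-synuclein cells, against 21.4, 37.8, 31.0 and 29.03 CPM untreated, and its change was not called (0.12, edgeR adjusted p = 0.746). In wild-type cells MSMO1 stood at 22.5, 17.5, 4.65 and 9.45 CPM with 6-OHDA, against 32.5, 22.4, 30.8 and 41.1 CPM untreated, with 1 treated library just above the lowest untreated one, and fell by 1.05 ± 0.31 on the log2 scale (SE, edgeR adjusted p = 0.00752). The difference of 1.18 ± 0.42 (SE, edgeR adjusted p = 0.0496) was close to the threshold and was lost under 14 of 28 alternatives.

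ELOVL6 fell in both genotypes, and by less in alpha-synuclein cells, with a difference of 0.76 ± 0.20 (SE, edgeR adjusted p = 0.00948) that was 0.51 ± 0.14 (SE) without replicate 4 of alpha-synuclein cells given 6-OHDA. HSD17B7 differed by 0.59 ± 0.18 (SE, edgeR adjusted p = 0.0204), and was not called without that library (edgeR adjusted p = 0.0505). IDI1 differed by 0.47 ± 0.13 (SE, edgeR adjusted p = 0.0151), and was not called without the 2 multi-barcode libraries (edgeR adjusted p = 0.0729). SREBF1 differed by -0.62 ± 0.14 (SE, edgeR adjusted p = 0.00382) and was called under all 28 alternatives, though its exons overlap RAI1 on the other strand. FDFT1, squalene synthase, stood at 69.5, 63.2, 67.4 and 52.3 CPM with 6-OHDA in alpha-synuclein cells, against 102.6, 80.4, 116.4 and 103.4 CPM untreated, and fell by 0.68 ± 0.11 on the log2 scale (SE, edgeR adjusted p = 2.58e-05). In wild-type cells FDFT1 averaged 85.9 ± 9.10 CPM with 6-OHDA and 93.2 ± 8.36 CPM without (SD, n = 4 each), which was not called (-0.11), and the genotypes differed by -0.57 ± 0.16 (SE, edgeR adjusted p = 0.0115), a call lost without replicate 2 of wild-type cells given 6-OHDA or without the multi-barcode libraries. The differences of INSIG1 (log2 difference -1.03 ± 0.34 SE, edgeR adjusted p = 0.0354), FASN (log2 difference -0.91 ± 0.31 SE, edgeR adjusted p = 0.0377) and MVD (log2 difference -0.58 ± 0.19 SE, edgeR adjusted p = 0.0282) were lost under 18, 14 and 16 of 28 alternatives.

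**Figure D4:**
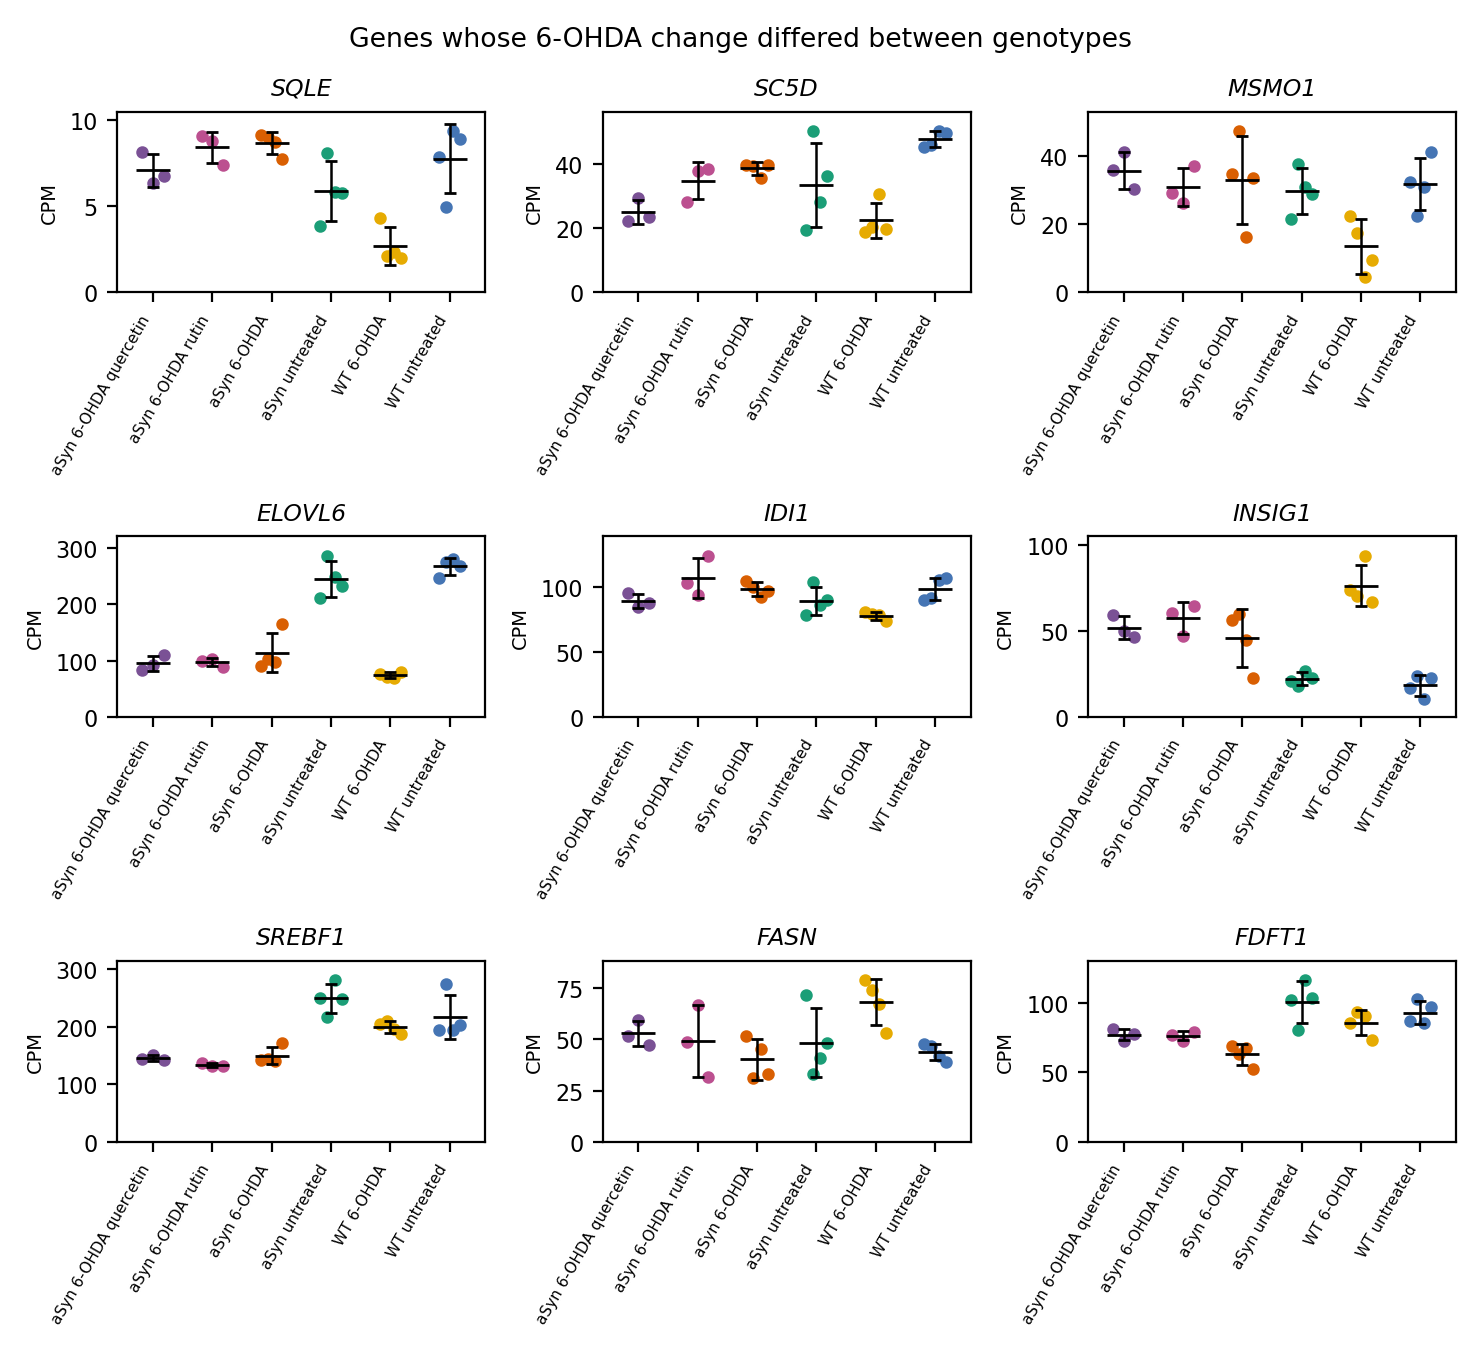
CPM of 9 genes whose response to 6-OHDA differed between genotypes, by group (x axis) and library (points), with the mean and SD as black bars. SQLE and SC5D are low in wild-type cells given 6-OHDA and not in alpha-synuclein cells given 6-OHDA, while SREBF1 and FDFT1 are low in alpha-synuclein cells given 6-OHDA. Of 28 alternatives, the call of a difference was lost under 18 for INSIG1, 14 for MSMO1, 14 for FASN, 2 for FDFT1 and 1 for IDI1.

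Alpha-synuclein was then compared with wild type at the same treatment. Without 6-OHDA, 0 of the 35 genes were called by edgeR in either direction, where 0.651% of all tested genes were called, 0.373% higher and 0.277% lower, and DESeq2 also called 0, where it called 1.39% of all tested genes. At an unadjusted p under 0.05 there were 3 (ABCG1, SREBF1 and SC5D), which is near the 9.24% of all tested genes that reached it. SC5D was called lower without replicate 2 of untreated alpha-synuclein cells (-0.76, edgeR adjusted p = 0.028). The 95% intervals of the 35 genes lay between -0.90 and 1.07 on the log2 scale. DHCR7 averaged 342 ± 14.9 CPM in untreated alpha-synuclein cells and 343 ± 21.0 CPM in untreated wild-type cells (SD, n = 4 each), with an interval of -0.19 to 0.18.

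With 6-OHDA, 8 of the 35 genes (22.9%) were higher and 6 (17.1%) lower in alpha-synuclein than in wild-type cells, where 27.3% of all tested genes were called, 14.4% higher and 12.9% lower. SQLE stood at 8.63 CPM in alpha-synuclein cells and 2.68 CPM in wild-type cells, both with 6-OHDA, a log2 difference of 1.45 ± 0.27 (SE, edgeR adjusted p = 0.000444) with no overlap. The other higher genes were MSMO1 (1.09 ± 0.32, SE), CYP51A1 (0.89 ± 0.27), SC5D (0.83 ± 0.22), ELOVL6 (0.63 ± 0.15), HSD17B7 (0.45 ± 0.13), IDI1 (0.33 ± 0.10) and NPC1 (0.31 ± 0.11). Lower were FASN (-0.78 ± 0.22), INSIG1 (-0.77 ± 0.24), MVD (-0.49 ± 0.13), FDFT1 (-0.46 ± 0.11), SREBF1 (-0.42 ± 0.10) and TM7SF2 (-0.34 ± 0.11). Without replicate 4 of alpha-synuclein cells given 6-OHDA, 6 were higher and 7 lower, of which 6 and 5 were among those called with it. LSS and EBP were newly called lower, and 24.7% of all tested genes were called in that fit. Of these calls, NPC1 was lost under 13 of 28 alternatives, TM7SF2 under 9, INSIG1 under 5, HSD17B7 under 2 (only the groups compared, and without that replicate 4), CYP51A1 without replicate 2 of alpha-synuclein cells given 6-OHDA, and FASN without replicate 1 of wild-type cells given 6-OHDA. Lane differed between these groups. This comparison and the test of the difference in response share the 6-OHDA libraries, so they do not stand as separate evidence.

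The last comparisons asked whether quercetin or rutin changed these genes in alpha-synuclein cells given 6-OHDA. Quercetin is a plant flavonol, and rutin is the same flavonol with a sugar chain attached. With quercetin, edgeR called 0 of the 35 genes in either direction, where 2.53% of all tested genes were called, 0.56% higher and 1.97% lower. At an unadjusted p under 0.05 there were 11, of which 10 were lower, where 16.9% of all tested genes reached it and 11.3% were lower. DESeq2 called 5.84% of all tested genes, 4.75% as lower, and called 4 of the 35 genes lower and 0 higher: SC5D (-0.62 ± 0.22, SE, DESeq2 adjusted p = 0.0492), HSD17B7 (-0.43 ± 0.14, 0.0261), TM7SF2 (-0.37 ± 0.12, 0.0336) and FADS1 (-0.34 ± 0.11, 0.0297). The smallest adjusted p by edgeR was 0.0826, for HSD17B7, at 25.5, 25.0 and 26.3 CPM with quercetin, against 27.4, 34.1, 30.1 and 44.7 CPM with 6-OHDA alone. The quercetin libraries lay below all the others, and replicate 4 of the 6-OHDA group was the highest.

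SC5D had the largest size of change with quercetin. It stood at 22.2, 29.3 and 23.6 CPM with quercetin, against 39.7, 39.5, 35.7 and 39.7 CPM with 6-OHDA alone, a log2 difference of -0.62 with a 95% interval of -1.06 to -0.18 (edgeR adjusted p = 0.124), and the groups did not overlap. Leaving out single libraries gave 0 to 4 genes lower and 0 higher with quercetin, where 26 to 896 of all tested genes were called. Without replicate 4 of the 6-OHDA group, edgeR called 0 of the 35 genes and 0.511% of all tested genes. An unadjusted p under 0.05 was then reached by 5 of the 35, and DESeq2 was not run without that library. FADS1 stood at 250.9, 248.5 and 268.4 CPM with quercetin. With 6-OHDA alone FADS1 stood at 249.7, 311.2, 313.9 and 419.9 CPM, highest in replicate 4, so these groups overlapped.

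With rutin, edgeR called 0 of the 35 genes, as it called 0% of all tested genes, and 3 genes had an unadjusted p under 0.05, near the 10.8% of all tested genes. DESeq2 called 1.72% of all tested genes, 1.55% as lower, and 1 of the 35, a share near that of all genes: FADS2, which was lower (-0.31 ± 0.10, SE, DESeq2 adjusted p = 0.0493). FADS2 stood at 455, 477 and 449.7 CPM with rutin, against 483, 592, 484 and 700.0 CPM with 6-OHDA alone, with all rutin libraries lower (edgeR adjusted p = 0.276). STARD4 had the largest size of change, -0.57 with a 95% interval of -1.05 to -0.08, which was not called (edgeR adjusted p = 0.38). Without replicate 4 of the 6-OHDA group, edgeR again called 0 of the 35 genes with rutin, and 3 had an unadjusted p under 0.05.

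Quercetin and rutin were compared directly for all 35 genes, at doses and times that were not stated in the labels, and edgeR called 0 of them, where 0.00602% of all tested genes were lower and 0% higher. DESeq2 called 0 as well, where it called 0.699% of all tested genes. At an unadjusted p under 0.05 there were 5, all lower with quercetin (FDPS, HSD17B7, TM7SF2, IDI1 and ACAT2), where 8.92% of all tested genes reached it and 4.95% were lower. FDPS stood at 77.5, 74.4 and 71.8 CPM with quercetin, against 87.1, 91.7 and 102.2 CPM with rutin, with no overlap and a log2 difference of -0.32 (95% interval -0.52 to -0.13, edgeR adjusted p = 0.263). HSD17B7 stood at 25.5, 25.0 and 26.3 CPM with quercetin, against 33.1, 32.3 and 38.1 CPM with rutin, also with no overlap (-0.42, 95% interval -0.71 to -0.13, edgeR adjusted p = 0.349). The intervals of the 35 genes lay between -0.98 and 0.91 on the log2 scale, and a p that misses the threshold does not show that the compounds act alike. The quercetin and rutin comparisons share the 6-OHDA libraries.

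**Figure D5:**
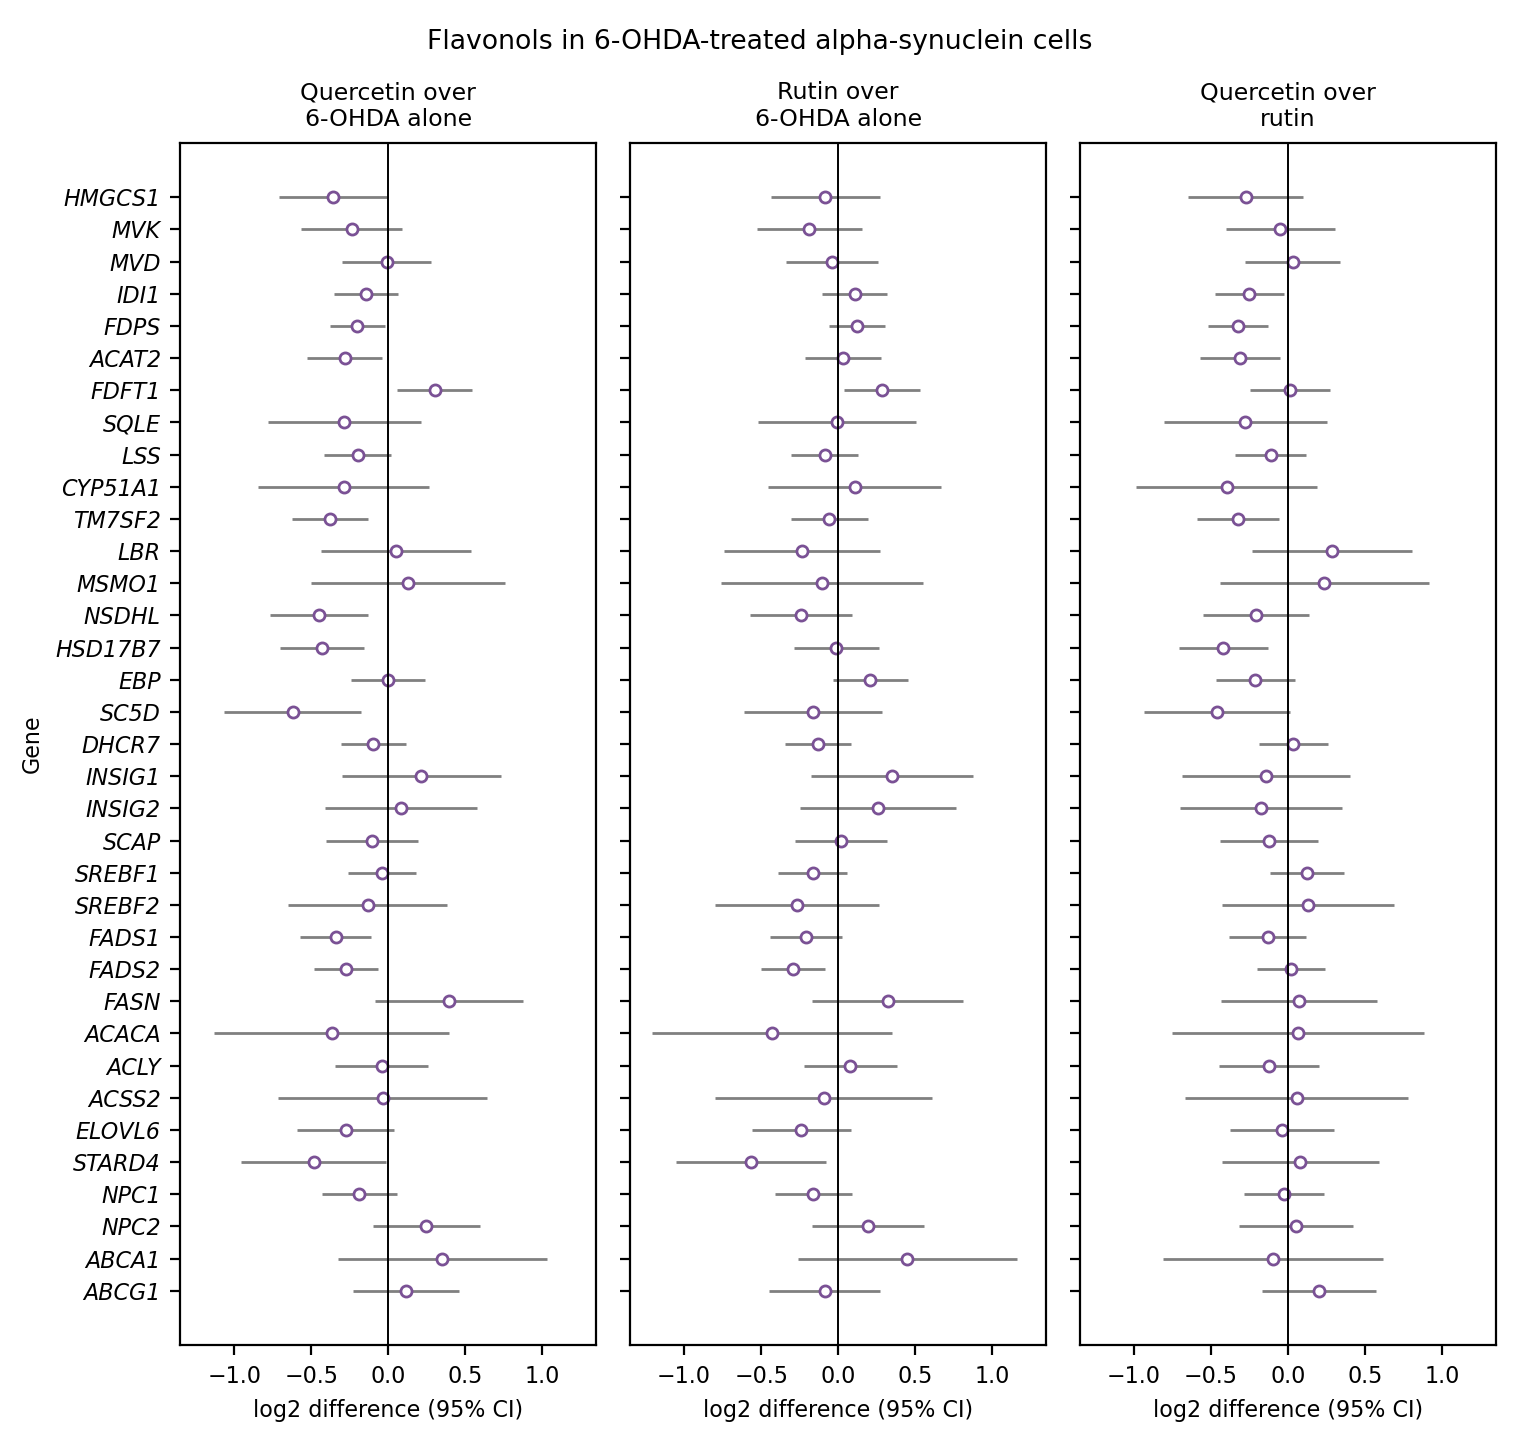
log2 difference (x axis) for each of the 35 genes (y axis) with quercetin over 6-OHDA alone, with rutin over 6-OHDA alone, and with quercetin over rutin, in alpha-synuclein cells, with 95% confidence intervals. All points are open because 0 passed an edgeR adjusted p of 0.05, and most quercetin points lie left of 0.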

How the data were processed

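Polyadenylated RNA was sequenced from 22 libraries in 6 groups, taken from the sample titles. The values were estimated counts per Ensembl gene in whole numbers, as deposited by the authors and not normalised, and all 22 sample columns were matched by name. The level of the overexpressed gene is not reported here. Per the submitters' processing notes the tools were Trimmomatic 0.38 and kallisto 0.46.2 and the build GRCh38 (hg38), without their roles or order. Annotation release, strand use, read filters and the step from transcripts to genes were not given in the sources used here. Since kallisto shares reads among similar transcripts, genes with overlapping partners or pseudogenes are uncertain.

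Counts were rounded and analysed with edgeR 4.0.16 in R 4.3.3: filterByExpr with a minimum count of 10, TMM, and glmQLFit and glmQLFTest on group means of all 22 libraries. A gene was called when its Benjamini-Hochberg adjusted p over 16601 genes was under 0.05, and each SE came from the log2 change and the F statistic. On the CPM scale a floor of 3 counts came to 0.168 to 1.49 CPM. Replicate pairs correlated at 0.931 to 0.988 (log2 CPM) and differed by more than sampling noise (chi-square per degree of freedom 2.73 to 24.9). No label ties libraries to separate cultures, and p-values then measure only the spread between these libraries, which may be technical. The steps were tested on simulated data. Alternatives were RLE size factors, no filter, DESeq2 1.42.0, only the groups compared, a replicate block, leaving out each library, and leaving out the 2 untreated alpha-synuclein libraries with 4 barcode numbers in their names.

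The genes, their role groups and the list of 40 other pathway genes were chosen with earlier results of these data known. Values per library were given for up to 3 called genes per role group with the largest log2 change in either 6-OHDA comparison and for INSIG1, INSIG2, SREBF1 and SREBF2. Those of MVD, LSS, LBR, CYP51A1, SC5D, MSMO1, FASN, FDFT1 and HSD17B7 were chosen after their values were seen. IDI1 and ABCG1 were also chosen then, without values per library in the text. Single libraries of other genes, such as MVK and EBP, are given below where a gap set them apart. Promoters were RefSeq's (GRCh38.p14), and positions were those of GENCODE 29, matched by ID without version, which was equal for 11 of 35.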

Additional observations from a re-analysis of the deposited data

Results flagged for a closer look

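In 140 groups of 4 libraries (35 genes in 4 groups), 16 had a library set apart from its group by a gap that chance gives in about 1 in 20 groups. In alpha-synuclein cells given 6-OHDA, replicate 4 was high for ELOVL6 (165 CPM, the others 90.7 to 103.4) and SREBF1 (172 CPM, the others 141 to 143), and replicate 3 was low for SC5D (35.7 CPM, the others 39.5 to 39.7). In untreated alpha-synuclein cells, replicate 1 was high for TM7SF2 (306 CPM, the others 255 to 263) and replicate 3 for FDPS (164 CPM, the others 149 to 151). In wild-type cells given 6-OHDA, replicate 1 was high for SQLE (4.29 CPM, the others 1.99 to 2.33), replicate 3 for ACAT2 (68.4 CPM, the others 48.3 to 50.5) and SC5D (30.7 CPM, the others 18.9 to 20.3), and replicate 4 was high for ACACA (130.3 CPM, the others 55.7 to 68.4) and low for NPC1 (52.2 CPM, the others 74.1 to 74.9). In untreated wild-type cells, replicate 1 was high for MVK (51.6 CPM, the others 36.9 to 38.1) and low for ABCA1 (2.94 CPM, the others 6.73 to 7.14). There, replicate 2 was high for EBP (78.1 CPM, the others 64.2 to 66.1) and SREBF1 (274 CPM, the others 195 to 204) and low for NPC1 (87.0 CPM, the others 111 to 113), and replicate 4 was low for LSS (399 CPM, the others 479 to 492).

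The response to 6-OHDA differed between genotypes in 11 genes by the interaction test of edgeR (adjusted p under 0.05), where 21.6% of all tested genes were called. The change in alpha-synuclein cells minus that in wild-type cells was positive for SQLE (1.84), SC5D (1.33), MSMO1 (1.18), ELOVL6 (0.76), HSD17B7 (0.59) and IDI1 (0.47). It was negative for INSIG1 (-1.03), FASN (-0.91), SREBF1 (-0.62), MVD (-0.58) and FDFT1 (-0.57). Of 28 alternatives, the call was lost under 18 for INSIG1, 16 for MVD, 14 for MSMO1 and for FASN, 2 for FDFT1 and 1 each for HSD17B7 and IDI1. Lane and treatment cannot be told apart in alpha-synuclein cells for these 11.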

How the results depend on the processing

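Of the 71 calls of a gene in a comparison, 0 changed direction under any alternative, and DESeq2 kept all 71, RLE size factors 70, no filter 69, the replicate block 67, only the groups compared 61 and leaving out the multi-barcode libraries 58. Leaving out each of 22 libraries in turn lost 7.81% of these calls. Genes with a positive and a negative interaction numbered 6 and 5 in the main analysis, 6 and 3 with only the groups compared, 4 and 1 without the multi-barcode libraries, and 9 and 6 by DESeq2. In the same settings the interaction was called for 21.6%, 21.2%, 11.7% and 24.2% of all tested genes. The cause was not tested. DESeq2 called 4 genes lower with quercetin and 1 with rutin, where edgeR called 0. Of all tested genes, DESeq2 called 5.84% with quercetin and 1.72% with rutin, and edgeR 2.53% and 0%.

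Leaving out single libraries gave 4 to 6 genes higher and 17 to 20 lower for 6-OHDA in wild-type cells, 3 to 5 and 14 to 17 in alpha-synuclein cells, 4 to 9 positive and 1 to 6 negative for the interaction, 0 higher and 0 to 1 lower for alpha-synuclein in untreated cells, 6 to 9 higher and 3 to 8 lower for alpha-synuclein in 6-OHDA cells, 0 higher and 0 to 4 lower with quercetin, and 0 either way with rutin and for quercetin against rutin. The same fits called 7679 to 8843 of all tested genes for 6-OHDA in wild-type cells and 6714 to 8520 in alpha-synuclein cells. They called 2861 to 4298 for the interaction, 33 to 239 for alpha-synuclein in untreated cells and 3732 to 4652 in 6-OHDA cells. For quercetin, rutin and quercetin against rutin the numbers were 26 to 896, 0 to 143 and 0 to 58. The single negative interaction came without replicate 2 of wild-type cells given 6-OHDA, and the 3 lower in alpha-synuclein than in wild-type cells with 6-OHDA without replicate 1 of wild-type cells given 6-OHDA.

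Same-numbered libraries did not deviate together (33 pairs, correlations -0.138 to 0.0776), so the numbers were not taken to pair samples. With the replicate block, genes higher and lower numbered 6 and 18 for 6-OHDA in wild-type cells, 4 and 16 in alpha-synuclein cells, 5 and 5 for the interaction, 7 and 6 for alpha-synuclein in 6-OHDA cells, and 0 in the other 4 comparisons. In the comparisons with calls, in that order, the block called 50.4%, 46.3%, 20.2% and 25.3% of all tested genes. Low counts limit SQLE, MSMO1, NPC2, ABCA1 and INSIG2, whose lowest libraries held 4 to 17 counts.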

Other observations

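A list of 40 further genes of sterol and fatty acid handling (38 in the table, 37 tested) was described in the same way. With 6-OHDA, 7 rose and 7 fell in alpha-synuclein cells and 8 rose and 9 fell in wild-type cells, with median log2 changes of -0.01 and 0.06. These shares, 18.9% and 18.9% in alpha-synuclein cells and 21.6% and 24.3% in wild-type cells, did not exceed those of all tested genes (22.9% and 24.2% in alpha-synuclein cells, 25.8% and 26.2% in wild-type cells). ACSL4, which activates polyunsaturated fatty acids for membrane lipids, averaged 85.3 CPM with 6-OHDA and 173 CPM without it in alpha-synuclein cells, and 48.8 CPM with 6-OHDA and 221 CPM without it in wild-type cells. It fell in both, with log2 changes of -2.18 ± 0.14 (SE, edgeR adjusted p = 6.24e-11) in wild-type cells and -1.005 ± 0.13 (SE, edgeR adjusted p = 1.74e-06) in alpha-synuclein cells, and the difference between genotypes was 1.18 ± 0.19 (SE, edgeR adjusted p = 0.000583). In wild-type cells the ceramide carrier CERT1 (log2 change -1.10 ± 0.11 SE, edgeR adjusted p = 1.92e-08), the acyl-CoA synthetase ACSL3 (log2 change -0.62 ± 0.08 SE, edgeR adjusted p = 5.7e-07) and ERLIN2, which takes part in the breakdown of endoplasmic reticulum proteins (log2 change -1.07 ± 0.13 SE, edgeR adjusted p = 5.79e-07), also fell.

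In alpha-synuclein cells, HACD3, a dehydratase of fatty acid elongation, rose (log2 change 0.72 ± 0.10 SE, edgeR adjusted p = 7.01e-06), as did DHDDS, a subunit of the enzyme that makes dolichol (log2 change 0.68 ± 0.10 SE, edgeR adjusted p = 8.66e-06), and CYP46A1, the brain cholesterol 24-hydroxylase (log2 change 0.79 ± 0.15 SE, edgeR adjusted p = 0.000142). The interaction was positive for 5 and negative for 3 of the 37 (13.5% and 8.11%, near the 11.2% and 10.5% of all tested genes), among them CYP46A1 (log2 difference 0.90 ± 0.21 SE, edgeR adjusted p = 0.00494), RNF139 (log2 difference 0.56 ± 0.13 SE, edgeR adjusted p = 0.00387) and the lipoprotein receptor LSR (log2 difference -0.81 ± 0.20 SE, edgeR adjusted p = 0.00602). With 6-OHDA, 7 of the 37 were higher and 5 lower in alpha-synuclein than in wild-type cells (18.9% and 13.5%, where 14.4% and 12.9% of all tested genes were called). Higher were ACSL4 (log2 change 0.83 ± 0.14 SE, edgeR adjusted p = 0.000259) and ACSL3 (log2 change 0.37 ± 0.08 SE, edgeR adjusted p = 0.00118), and lower were LSR (log2 change -0.76 ± 0.14 SE, edgeR adjusted p = 0.000535) and the enoyl reductase TECR (log2 change -0.53 ± 0.11 SE, edgeR adjusted p = 0.000887). None of the 37 was called by edgeR for alpha-synuclein in untreated cells, quercetin, rutin, or quercetin against rutin, where the smallest adjusted p-values were those of LRP8 (0.238), ERLIN2 (0.0962), TMEM97 (0.198) and ACSL4 (0.607). At an unadjusted p under 0.05 edgeR counted 3 of them for alpha-synuclein in untreated cells, 8 with quercetin, 3 with rutin and 0 between the flavonols, and DESeq2 called 0, 2, 1 and 0 in the same comparisons. All tested genes reached an unadjusted p under 0.05 in 9.24%, 16.9%, 10.8% and 8.92% of cases, and DESeq2 called 1.39%, 5.84%, 1.72% and 0.699% of them.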
